A study of Homo sapiens with 8 samples.

Results

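The genes described here are 10 transcriptional feedback inhibitors of ERK signalling: the Sprouty genes SPRY1, SPRY2 and SPRY4, the Spred genes SPRED1, SPRED2 and SPRED3, the phosphatase genes DUSP4, DUSP5 and DUSP6, and the receptor-like gene IL17RD. They were taken by name from a count table of 61209 gene names, and the rule for taking them used no measured value, although the set was proposed with earlier results of these data known. All 10 were found, and all 10 were among the 22554 genes with enough counts to be tested. Their levels were compared in 4 groups of 2 RNA sequencing libraries each.

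FGF ligands bind receptor tyrosine kinases at the cell surface and, through RAS, RAF and MEK, activate the kinase ERK. Active ERK raises the transcription of its own inhibitors. Sprouty proteins act between the receptor and RAF, Spred proteins bring the RAS inactivator neurofibromin to the membrane, DUSP phosphatases remove the activating phosphates from ERK, and IL17RD, also called SEF, holds active MEK and ERK away from the nucleus. In the limb bud, genes of this kind are known as readouts of the FGF that the apical ectodermal ridge supplies to the mesenchyme beneath it.

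The cells were H1, an established human embryonic stem cell line, carrying the reporter Msx1-P2A-tdTomato, in which a red fluorescent protein is made together with the limb bud transcription factor MSX1. All 4 groups passed through 1 day with Activin A (50 ng/mL), the GSK3 inhibitor CHIR99021 (6 µM), BMP4 (40 ng/mL) and FGF2 (10 ng/mL), followed by 3 days of BMP4 (60 ng/mL) with CHIR99021 (1 µM). So the Mock groups had also seen an FGF, on day 0. Cells that had been dissociated on day 4 were pelleted at 25000 per well, transferred on day 5 and cultured for 3 more days. They were kept with FGF8 and FGF10, each at 500 ng/mL, or with Mock treatment. On day 8 reporter-positive cells were sorted by the receptor PDGFRA into a positive gate (Msx1+Pdgfra+) and a low gate (Msx1+Pdgfralow). The groups were thus FGF8+10 Pdgfra-positive, FGF8+10 Pdgfra-low, Mock Pdgfra-positive and Mock Pdgfra-low. The labels describe the FGF8+10 medium for every library and do not give the Mock medium. Sorting came after treatment, so a gate need not hold the same kinds of cell under both treatments. The 2 libraries of a group are called biological replicates with no word on separate cultures, so p-values measure the spread between these libraries only.

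The libraries held 47698561 to 64390444 counts. PDGFRA, the receptor used for the sort, was 2.50-fold higher in the positive than in the low gate under FGF8+10 and 2.37-fold higher under Mock, as the labels state. MSX1 was present in every library, at 48.6 to 52.8 CPM (a gene's counts relative to the scaled library total) under FGF8+10 and 21.3 to 26.2 CPM under Mock. All 11 mesenchyme markers were above 1 CPM in all 4 groups, but their levels differed. Their sum, which includes PDGFRA, was 2112 to 2118 CPM in FGF8+10 Pdgfra-positive and 1490 to 1504 in FGF8+10 Pdgfra-low libraries. It was 1781 in Mock Pdgfra-positive and 1560 to 1578 in Mock Pdgfra-low libraries. Of these sums, PDGFRA alone gave a mean of 714 CPM in the positive and 286 CPM in the low gate with FGF8+10. Under Mock it gave 454 and 192 CPM, a wider gap than that of the sums. Without PDGFRA, the markers together were thus higher in the low gate under Mock and in the positive gate with FGF8+10. Single markers moved both ways with FGF8+10. TBX4 fell 2.66-fold in the positive gate and 6.06-fold in the low gate, while MSX1 rose 2.32-fold and 1.94-fold. FGF8+10 and Mock libraries differed widely: with CPM scaled by trimmed mean of M values (TMM), 25.8% of tested genes were higher and 25.1% lower with FGF8+10 in the positive gate. Scaling by library totals alone moves the median of all genes up by 0.17 log2 in the positive gate and 0.16 in the low gate, and the split of 5811 higher and 5658 lower genes in the positive gate then becomes 8164 and 3991. In the low gate 6300 higher and 6256 lower genes become 8113 and 4672. All values below are on the TMM scale.

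With FGF8+10, 8 of the 10 inhibitor genes were higher in the Pdgfra-positive gate and 8 were higher in the Pdgfra-low gate, where 27.9% of tested genes rose and 27.7% fell. SPRY1, SPRY2, SPRY4, SPRED1, SPRED2, DUSP6 and IL17RD rose in both gates. SPRED3 passed the test in the positive gate alone and DUSP5 in the low gate alone. DUSP4 was lower in both, by less than 2-fold, where 9.83% of tested genes in the positive gate and 11.8% in the low gate fell by 2-fold or more. Rises of at least 2-fold were found for 6 genes in the positive gate, against 7.29% of all tested genes, and for 8 in the low gate, against 9.45%. The median log2 fold change of the 10 genes was 1.42 in the positive gate and 2.40 in the low gate, where the medians over all tested genes were -0.011 and -0.015. These and the following adjusted p-values come from the quasi-likelihood test of edgeR with Benjamini-Hochberg adjustment over all tested genes. In sorted bulk RNA, fewer cells expressing a gene and less of its RNA per cell cannot be told apart.

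**Figure D1:**
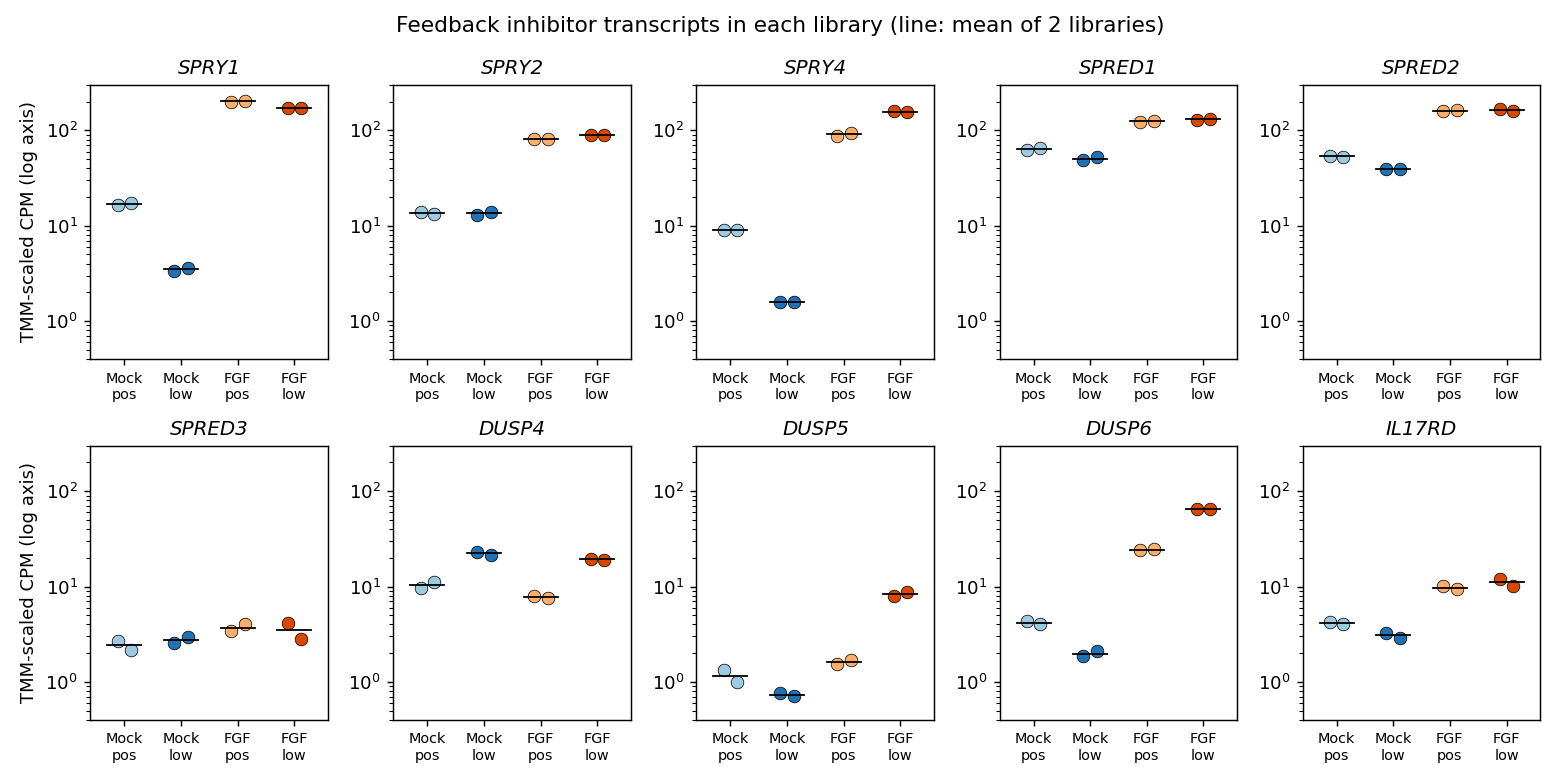
Each panel shows 1 gene, with TMM-scaled CPM on a log axis for the 2 libraries of each group as points and their mean as a line. The FGF8+10 libraries lie above the Mock libraries of the same gate for SPRY1, SPRY2, SPRY4, SPRED1, SPRED2, DUSP5, DUSP6 and IL17RD, below them for DUSP4, and among them for SPRED3 in the low gate.

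SPRY1 (chr4:123396795-123403760, plus strand, GRCh38) encodes a Sprouty protein required in the developing kidney to restrain receptor signalling. Its level was 201 and 202 CPM with FGF8+10 in the positive gate and 174 and 171 CPM in the low gate. With Mock it was 16.5 and 17.3 CPM in the positive gate and 3.37 and 3.64 CPM in the low gate. The 4 FGF8+10 libraries thus stood above all Mock libraries, and the low gate with Mock was the lowest group. The log2 fold change was 3.57 ± 0.043 (SE, n = 2 libraries per group, adjusted p = 3.58e-46 by edgeR) in the positive gate, or 11.9-fold, and 5.62 ± 0.054 (adjusted p = 1.9e-50) in the low gate, or 49.2-fold.

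SPRY4 (chr5:142310427-142326455, minus strand), a Sprouty gene whose limb bud expression follows FGF from the ridge, had the steepest rise of the 10 genes in the low gate. It was at 87.1 and 94.2 CPM with FGF8+10 in the positive gate and at 158 and 155 CPM in the low gate. With Mock it was at 9.01 and 8.96 CPM in the positive gate and at 1.59 and 1.60 CPM in the low gate. No groups overlapped, and the gate that was lowest with Mock was highest with FGF8+10. The rise was 10.1-fold in the positive gate (log2 3.33 ± 0.057, adjusted p = 2.81e-40 by edgeR) and 97.9-fold in the low gate (log2 6.61 ± 0.070, adjusted p = 1.59e-48). It ranked 97 in the low gate and 295 in the positive gate when the 22554 genes were ordered from the largest rise.

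SPRY2 (chr13:80335976-80341126, minus strand), the family member best known for binding the ubiquitin ligase CBL, differed from the other Sprouty genes in that the gates were close. Its level was 80.9 and 80.6 CPM in the positive gate and 89.1 and 90.1 CPM in the low gate with FGF8+10. With Mock it was 14.05 and 13.3 CPM in the positive gate and 12.9 and 14.1 CPM in the low gate. The treatments were far apart, and the gates overlapped under Mock. The rise was 5.92-fold in the positive gate (log2 2.57 ± 0.057, adjusted p = 1.36e-35 by edgeR) and 6.64-fold in the low gate (log2 2.73 ± 0.056, adjusted p = 2.41e-37).

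The fold changes of the Spred genes were smaller than those of the Sprouty genes. SPRED2 (chr2:65310851-65432637, minus strand), which like SPRED1 recruits neurofibromin, was at 160.2 and 162 CPM in the positive gate and 166 and 160.4 CPM in the low gate with FGF8+10. Under Mock its level was 54.3 and 52.6 CPM in the positive gate and 39.0 CPM in both libraries of the low gate. FGF8+10 libraries of both gates overlapped, and the Mock libraries of the low gate were the lowest. The rise was 3.01-fold in the positive gate (log2 1.59 ± 0.037, adjusted p = 4.47e-35 by edgeR) and 4.19-fold in the low gate (log2 2.07 ± 0.037, adjusted p = 1.81e-39).

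SPRED1 (chr15:38252836-38357249, plus strand), the gene lost in Legius syndrome, was at 123 and 127 CPM in the positive gate and at 129.9 and 132 CPM in the low gate with FGF8+10. Mock libraries gave 62.6 and 65.6 CPM in the positive gate and 49.0 and 52.2 CPM in the low gate. All 4 groups were apart, by a narrow margin between the FGF8+10 gates. SPRED1 rose 1.95-fold in the positive gate (log2 0.96 ± 0.039, adjusted p = 1.61e-25 by edgeR) and 2.58-fold in the low gate (log2 1.37 ± 0.039, adjusted p = 1.53e-31).

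SPRED3 (chr19:38388421-38399587, plus strand), whose protein lacks a working KIT-binding domain, had the lowest level per exon length of the set in 3 of the 4 groups. It was at 3.39 and 4.00 CPM in the positive gate and at 4.17 and 2.85 CPM in the low gate with FGF8+10. With Mock it was at 2.71 and 2.14 CPM in the positive gate and at 2.56 and 2.93 CPM in the low gate. The treatments overlapped in the low gate and lay apart in the positive gate. The log2 difference was 0.61 ± 0.21 in the positive gate (adjusted p = 0.0119 by edgeR) and 0.35 ± 0.20 in the low gate (adjusted p = 0.144). The call in the positive gate was lost without FGF8+10 Pdgfra-positive replicate 2 (adjusted p = 0.109) or without Mock Pdgfra-positive replicate 2 (adjusted p = 0.145), and over the alternatives the adjusted p ran from 0.00121 to 0.145.

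Among the phosphatases, DUSP6 and DUSP5, which act on ERK in the cytoplasm and the nucleus respectively, rose most in the low gate, while DUSP4 was lower with FGF8+10. DUSP6 (chr12:89347235-89352501, minus strand) was at 24.0 and 24.7 CPM in the positive gate and at 64.3 and 64.9 CPM in the low gate with FGF8+10. Under Mock its level was 4.32 and 4.03 CPM in the positive gate and 1.87 and 2.08 CPM in the low gate. As with SPRY4, the low gate was the lowest group under Mock and the highest under FGF8+10. DUSP6 rose 5.84-fold in the positive gate (log2 2.55 ± 0.089, adjusted p = 5.89e-28 by edgeR) and 32.6-fold in the low gate (log2 5.03 ± 0.092, adjusted p = 3.91e-39). An antisense gene, ENSG00000274021, covers 1105 of the 3859 exon bases of DUSP6. The counting took no account of strand and dropped reads shared by both genes, so DUSP6 was counted on the other 2754 bases. The antisense gene itself had 0.415 to 1.19 CPM with FGF8+10 and at most 0.049 CPM with Mock.

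DUSP5 (chr10:110497907-110511533, plus strand) passed the test in the low gate and not in the positive gate. With FGF8+10 it was at 1.54 and 1.68 CPM in the positive gate and at 7.90 and 8.85 CPM in the low gate. Mock libraries gave 1.32 and 0.996 CPM in the positive gate and 0.756 and 0.711 CPM in the low gate. The low gate with FGF8+10 stood alone, and the other 6 libraries lay at or below 1.68 CPM. The rise in the low gate was 11.4-fold (log2 3.51 ± 0.22, adjusted p = 1.83e-18 by edgeR). In the positive gate the log2 difference was 0.48 ± 0.23 and missed the threshold (adjusted p = 0.0878 by edgeR), and with library totals alone it was 0.65 with an adjusted p of 0.0166.

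DUSP4, a nuclear phosphatase of ERK, JNK and p38, was higher in the low gate under both treatments. With FGF8+10 it was at 8.03 and 7.49 CPM in the positive gate and at 19.5 and 19.1 CPM in the low gate. With Mock it was at 9.66 and 11.1 CPM in the positive gate and at 23.1 and 21.5 CPM in the low gate. In each gate the FGF8+10 libraries lay below the Mock libraries, by much less than the gates differed. DUSP4 fell by 0.42 ± 0.099 log2 in the positive gate (adjusted p = 0.000373 by edgeR). In the low gate it fell by 0.21 ± 0.087 log2 (adjusted p = 0.0386), and this call was lost under 5 of 15 alternatives, namely DESeq2 (adjusted p = 0.0879), library totals alone (log2 -0.047, adjusted p = 0.676), and leaving out FGF8+10 Pdgfra-low replicate 1 (0.0874), FGF8+10 Pdgfra-low replicate 2 (0.16) or Mock Pdgfra-low replicate 1 (0.255).

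IL17RD (chr3:57089982-57170306, minus strand) was at 10.1 and 9.35 CPM in the positive gate and at 12.1 and 10.1 CPM in the low gate with FGF8+10. Under Mock its level was 4.21 and 4.03 CPM in the positive gate and 3.24 and 2.91 CPM in the low gate. The treatments did not overlap, and the FGF8+10 gates all but touched. IL17RD rose 2.36-fold in the positive gate (log2 1.24 ± 0.14, adjusted p = 1.09e-10 by edgeR) and 3.61-fold in the low gate (log2 1.85 ± 0.14, adjusted p = 5.08e-16).

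**Figure D2:**
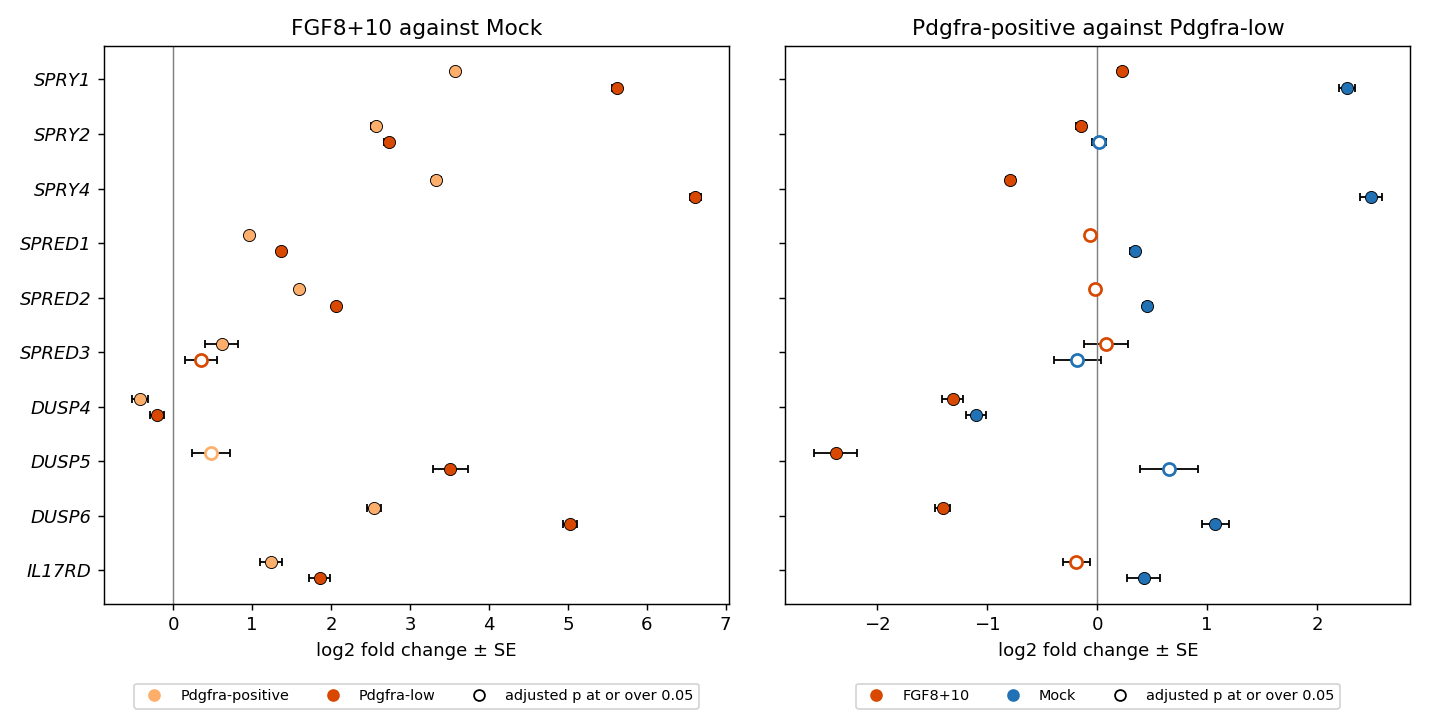
Points show the log2 fold change of each gene with its SE, for FGF8+10 against Mock in each gate on the left and for the Pdgfra-positive against the Pdgfra-low gate under each treatment on the right, and open points did not pass the test. On the left the largest values are those of SPRY4 (6.61), SPRY1 (5.62) and DUSP6 (5.03) in the low gate, and on the right SPRY4 and DUSP6 lie on opposite sides of 0 under the 2 treatments.

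The sequences just upstream of 3 of the 4 genes with the larger rises in both gates (SPRY1, SPRY2, SPRY4 and DUSP6) are shown as examples, since the factors named for the motifs act downstream of ERK. They are the 250 bases before a RefSeq transcription start on GRCh38.p14, 5′ to 3′ on the gene's strand, and capitals mark the ETS core CCGGAA, the sequence bound by the ETS family that includes the ETV factors described further on. The windows are chr13:80341127-80341376 for SPRY2, chr4:123396545-123396794 for SPRY1 and chr12:89352502-89352751 for DUSP6.
SPRY2: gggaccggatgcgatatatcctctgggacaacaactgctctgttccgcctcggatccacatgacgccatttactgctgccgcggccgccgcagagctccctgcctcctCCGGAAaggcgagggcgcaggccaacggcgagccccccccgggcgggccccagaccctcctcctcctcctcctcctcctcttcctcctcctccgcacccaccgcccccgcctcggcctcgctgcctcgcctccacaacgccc
SPRY1: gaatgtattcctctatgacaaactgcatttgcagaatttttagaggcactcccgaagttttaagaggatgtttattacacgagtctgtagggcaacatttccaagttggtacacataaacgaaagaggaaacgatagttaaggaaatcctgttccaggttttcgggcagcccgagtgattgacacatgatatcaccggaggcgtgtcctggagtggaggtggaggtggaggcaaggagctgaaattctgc
DUSP6: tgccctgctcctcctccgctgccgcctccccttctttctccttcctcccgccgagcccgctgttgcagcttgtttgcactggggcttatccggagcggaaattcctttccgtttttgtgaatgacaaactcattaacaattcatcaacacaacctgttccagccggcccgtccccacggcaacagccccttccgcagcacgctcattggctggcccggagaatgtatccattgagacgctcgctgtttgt
The SPRY2 window, at 1 of the 3 starts that RefSeq gives this gene, holds 1 ETS core, which begins 142 bases before the start. The windows at the other 2 SPRY2 starts hold none. The SPRY1 and DUSP6 windows shown hold none. The SPRY4 window also holds none of the motifs searched, and it is not shown because 170 of its 250 bases lie in counted exons. At a downstream start of SPRY1 (position 123398386 on chromosome 4), a core begins 67 bases before the start. All 250 bases of that window lie in counted exons, and only the core with its flanks is given.
SPRY1 downstream start: cctccgcagCCGGAAgggggccgc

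In all, 8 of the 10 genes matched the RefSeq promoter table by symbol, with 14 start sites. DUSP4 and DUSP5 were not in it. Searched on both strands, CCGGAA or TTCCGG was in 2 of the 14 upstream windows, those of SPRY1 and SPRY2 just described, and in 14.5% of the 35116 windows of the whole table. The octamers TGAATGAA and TGAATGGA, bound by the repressor Capicua, or their complements TTCATTCA and TCCATTCA, were in 1 of 14 windows, at SPRED3, and in 2.19% of all windows. The AP-1 site TGANTCA was in the same SPRED3 window and in 6.57% of all windows. Of the 250 bases of that SPRED3 window, 126 lie in counted exons. None of the motifs contains another. A window without a match says only that these letters are not in these 250 bases.

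Between the gates, the order of the feedback genes depended on the treatment. Under Mock, 6 of the 10 were higher in the Pdgfra-positive gate, where 12.4% of tested genes were, and 1, DUSP4, was lower, against 13.4%. Under FGF8+10, 1 was higher, SPRY1, against 19.6% of tested genes, and 5 were lower, SPRY2, SPRY4, DUSP4, DUSP5 and DUSP6, against 21.7%. The median log2 difference of the 10 genes, positive minus low, was 0.44 under Mock and -0.17 under FGF8+10, beside medians over all tested genes of 0.016 and 0.011.

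Under Mock, SPRY4 was 5.61-fold higher in the positive gate (log2 2.49 ± 0.10, adjusted p = 2.92e-24 by edgeR). SPRY1 was 4.83-fold higher there (log2 2.27 ± 0.070, adjusted p = 6.25e-29) and ranked 214 of 22554. DUSP6 was 2.11-fold higher (log2 1.08 ± 0.13, adjusted p = 2.04e-09). These were the 3 genes of the set past 2-fold in that direction, against 1.63% of tested genes. SPRED2 (log2 0.46 ± 0.040, adjusted p = 7.14e-13) and SPRED1 (0.34 ± 0.041, 3.82e-09) were higher by less. IL17RD passed narrowly, with a log2 difference of 0.42 ± 0.15 (adjusted p = 0.0343 by edgeR), and lost the call under 8 of 15 alternatives, among them DESeq2 (0.0717) and leaving out each of the 4 Mock libraries in turn (0.143 and 0.077 without Mock Pdgfra-positive replicates 1 and 2, 0.0543 and 0.216 without Mock Pdgfra-low replicates 1 and 2). DUSP4 was 2.15-fold lower in the positive gate (log2 -1.10 ± 0.093, adjusted p = 1.92e-13), a fall of at least 2-fold that 2.25% of tested genes showed. For SPRY2 the log2 difference was 0.016 ± 0.067, for DUSP5 0.65 ± 0.26 (adjusted p = 0.0612) and for SPRED3 -0.18 ± 0.21.

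Under FGF8+10, DUSP5 was 5.20-fold lower in the positive gate (log2 -2.38 ± 0.20, adjusted p = 5.47e-14 by edgeR). DUSP6 was 2.65-fold lower (log2 -1.41 ± 0.067, adjusted p = 1.99e-22) and DUSP4 2.49-fold lower (log2 -1.31 ± 0.093, adjusted p = 2.95e-16). The 3 phosphatase genes were the members past 2-fold, against 3.26% of tested genes, and 0 members were 2-fold higher, against 3.13%. SPRY4 was 1.73-fold lower in the positive gate (log2 -0.79 ± 0.042, adjusted p = 1.11e-20), the reverse of its order under Mock. SPRY1 kept its order and was 1.17-fold higher (log2 0.23 ± 0.034, adjusted p = 2.29e-07). The SPRY2 difference was small, at log2 -0.15 ± 0.047 (adjusted p = 0.00796 by edgeR), and was no longer called without FGF8+10 Pdgfra-positive replicate 1 (0.051) or 2 (0.0623) or FGF8+10 Pdgfra-low replicate 2 (0.0737). SPRED1, SPRED2, SPRED3 and IL17RD did not pass, with log2 differences of -0.066 ± 0.036, -0.021 ± 0.033, 0.080 ± 0.20 and -0.19 ± 0.12.

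The gates also differed in markers of other cell types. The summed level of 5 endothelial markers was 2121 to 2132 CPM in FGF8+10 Pdgfra-positive, 2536 to 2540 in FGF8+10 Pdgfra-low, 1323 to 1336 in Mock Pdgfra-positive and 1357 to 1366 in Mock Pdgfra-low libraries, and none of the 5 was at 0 in any group. Most of that sum was KDR, a receptor that mesoderm also carries. The junction protein CDH5 was at 19.4 and 20.2 CPM in the low gate with FGF8+10 and between 0.747 and 1.72 CPM in the other 6 libraries. The adhesion protein PECAM1 was at 19.4 and 17.5 CPM in the low gate with FGF8+10 and between 0.645 and 3.11 CPM elsewhere. The ETS factor ERG was at 48.7 and 46.7 CPM in that group, 23.2 and 21.3 CPM in FGF8+10 Pdgfra-positive, 15.8 and 15.1 CPM in Mock Pdgfra-positive and 6.34 and 6.07 CPM in Mock Pdgfra-low. The group highest for DUSP5, DUSP6 and SPRY4 was thus also the highest for CDH5, PECAM1, ERG and KDR. It was not so for TEK, an endothelial receptor, which was at 480 and 486 CPM in that group and at 485 and 496 CPM in FGF8+10 Pdgfra-positive (log2 difference 0.024 ± 0.023, adjusted p = 0.467 by edgeR), against 148 to 159 CPM in the Mock libraries. The part of such cells in the results on DUSP5, DUSP6 and SPRY4 was not tested. The sum of 5 epithelial markers was 471 to 475 CPM in FGF8+10 Pdgfra-positive, 1292 to 1301 in FGF8+10 Pdgfra-low, 665 to 666 in Mock Pdgfra-positive and 1129 to 1135 in Mock Pdgfra-low libraries, with 0 of the 5 at 0 in any group. This sum, like DUSP4, was higher in the low gate under both treatments. With FGF8+10 against Mock, both were lower in the positive gate, while in the low gate the sum was higher and DUSP4 lower. The part of this sum in the DUSP4 result was not tested. KRT8, KRT18 and KRT19 made up nearly all of it, and the defining epithelial genes EPCAM and CDH1 stayed at or below 1.51 CPM.

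The FGF8+10 effect itself differed between the gates for 7 of the 10 genes, all with the larger rise in the low gate, against 14% of tested genes with that sign, and for 0 with the opposite sign, against 12%. This difference (low minus positive) has the libraries of the gate comparisons in it and is no separate evidence. SPRY4 had the largest difference, 3.28 ± 0.11 log2 (adjusted p = 2.05e-27 by edgeR), or 9.71-fold. DUSP5 followed with 3.03 ± 0.33 (adjusted p = 3.24e-10), DUSP6 with 2.48 ± 0.14 (adjusted p = 6.34e-19) and SPRY1 with 2.05 ± 0.079 (adjusted p = 4.5e-25). These 4 passed 2-fold, against 2.37% of tested genes. For SPRY1 the difference lay on the Mock side, where the low gate was 4.83-fold lower. With FGF8+10 the low gate was also lower, by 1.17-fold, which reduced the difference. For DUSP5 most of it lay on the FGF8+10 side, where the low gate was 5.20-fold higher. Under Mock the DUSP5 difference, positive minus low, was 0.65 ± 0.26 log2 and did not pass the test. For SPRY4 and DUSP6 both sides passed the test, with the gates in opposite order. Positive minus low, SPRY4 differed by 2.49 log2 under Mock and -0.79 under FGF8+10, and DUSP6 by 1.08 and -1.41.

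The remaining differences between the effects were smaller. SPRED2 differed by 0.48 ± 0.052 (adjusted p = 4.14e-10 by edgeR) and SPRED1 by 0.41 ± 0.055 (adjusted p = 6.19e-08). IL17RD differed by 0.61 ± 0.20 (adjusted p = 0.0153), which was not called without FGF8+10 Pdgfra-positive replicate 2 (0.0769), FGF8+10 Pdgfra-low replicate 1 (0.13) or Mock Pdgfra-low replicate 2 (0.0766). For SPRY2 (0.17 ± 0.081), DUSP4 (0.21 ± 0.13) and SPRED3 (-0.26 ± 0.29) no difference between the effects passed the test (adjusted p = 0.141, 0.272 and 0.593).

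To compare the genes with each other, CPM were divided by exon length in kilobases. With FGF8+10, SPRY1 was the most abundant member per length, at 50.8 ± 0.23 (SD, n = 2) CPM per kb in the positive gate and 43.5 ± 0.58 in the low gate. It was followed by SPRED2 (29.2 and 29.7) and SPRY2 (25.1 and 27.9) in both gates. SPRY4 stood below SPRED1 in the positive gate (13.8 and 16.1 CPM per kb) and above it in the low gate (23.9 and 16.9). DUSP4 and IL17RD had overlapping libraries in the positive gate and do not differ beyond their spread, and the same holds for DUSP5 and SPRED3 there. SPRED1 and DUSP6 (16.7) overlapped in the low gate when DUSP6 was divided by its full exon length. Part of that length could not be counted. Over its unshared exon bases, DUSP6 would stand at 23.4 CPM per kb in the low gate with FGF8+10, above SPRED1, and at 8.85 in the positive gate. With Mock it would stand at 0.718 in the low gate and 1.52 in the positive gate. This recalculation was added after the overlap was seen.

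With Mock the order was led by the Spred genes instead. SPRED2 was at 9.71 CPM per kb in the positive gate and 7.08 in the low gate, and SPRED1 at 8.27 and 6.53. SPRY1 and SPRY2 followed in the positive gate at 4.27 and 4.25, with overlapping libraries. In the low gate SPRY2 kept that level (4.20), DUSP4 came next (3.06), SPRY1 was at 0.884 and SPRY4 was the lowest of all 10, at 0.244 CPM per kb. In the positive gate DUSP4 and SPRY4 overlapped, as did DUSP5 with IL17RD and IL17RD with SPRED3. In the low gate DUSP6, divided by its full exon length, overlapped with SPRED3.

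Summed per length, the 10 genes with FGF8+10 reached 144 and 146 CPM per kb in the positive gate and 167 and 165 in the low gate. With Mock they summed to 31.7 and 31.6 in the positive gate and 23.2 and 23.9 in the low gate. The Sprouty genes made up 62.0% of this sum in both FGF8+10 Pdgfra-positive libraries and 57.3% in the low gate, but 31.2% in both Mock Pdgfra-positive libraries and 22.0% and 23.2% in the low gate. The Spred genes made up 31.7% and 31.8% with FGF8+10 in the positive gate, 28.5% and 28.2% in the low gate, and 58.0% to 59.8% with Mock. The DUSP genes ranged from 5.52% and 5.55% in FGF8+10 Pdgfra-positive to 17.0% and 15.8% in Mock Pdgfra-low. The composition therefore differed between treatments as well as the total. DUSP6 entered these sums over its full exon length, so its level and the DUSP share are understated.

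**Figure D3:**
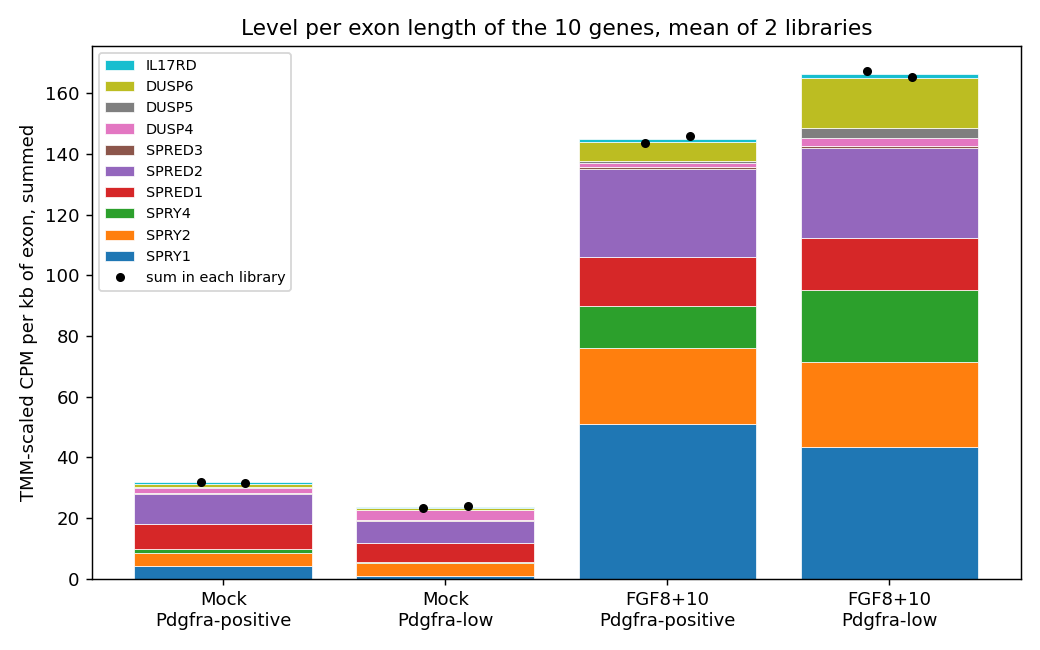
Bars, from 0, stack the mean level of the 10 genes per exon length in TMM-scaled CPM per kb for each group, and dots give the sum in each of the 2 libraries. SPRED1 and SPRED2 fill most of the Mock bars (sums of 31.7 and 23.6), while SPRY1, SPRY2 and SPRY4 fill most of the FGF8+10 bars (sums of 145 and 166).

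The patterns of the members over the 4 groups were compared by the root mean square difference of their group means of log2 CPM, each gene centred on its own mean. SPRY1 and SPRY4 were close, at 0.41 log2, as were SPRED2 and IL17RD, at 0.16, and SPRED1 and IL17RD, at 0.19. SPRED1 was also close to SPRED2, at 0.33, and to SPRED3, at 0.40. SPRY2 was nearer to SPRED2 (0.44) than to SPRY1 (1.26) or SPRY4 (1.46). DUSP6 was at about the same distance from SPRY4 (0.80), SPRY2 (0.81) and SPRY1 (0.82). DUSP5 was nearest to SPRED1, SPRED2, SPRY2 and IL17RD, at 0.80 to 0.91. DUSP4 was nearest to SPRED3, at 0.71, and farthest from SPRY4, at 2.93. These are descriptions over 4 means, which share libraries across genes.

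The rest of the pathway was counted in lists made by function. The counts of each list stand beside 25.8% of all tested genes higher and 25.1% lower in the positive gate, and 27.9% and 27.7% in the low gate. Of 9 FGF receptors and coreceptors, 1 was higher and 7 were lower with FGF8+10 in each gate. The 1 was FGFR1, a receptor widely present in mesenchyme, at 361 and 362 CPM with FGF8+10 against 179 and 180 with Mock in the positive gate (log2 1.01 ± 0.030, adjusted p = 4.12e-30 by edgeR). Its log2 rise in the low gate was 0.79 ± 0.030 (adjusted p = 4e-26). FGFR2, a receptor for FGF10 in its epithelial form and named here after its values were seen, was at 266 and 275 CPM with FGF8+10 against 1581 and 1600 CPM with Mock in the positive gate (log2 -2.55 ± 0.021, adjusted p = 1.14e-52). In the low gate it was at 147 and 145 CPM against 1690.3 and 1694 CPM (log2 -3.53 ± 0.022, adjusted p = 1.58e-57). FGFR3, a receptor best known from cartilage, had the largest fall in the positive gate, from 101 and 106 CPM to 10.96 and 10.8 CPM (log2 -3.25 ± 0.051, adjusted p = 1e-41). FLRT1, a receptor-binding membrane protein, had the largest fall in the low gate, from 5.47 and 5.74 CPM to 0.226 and 0.563 CPM (log2 -3.80 ± 0.28, adjusted p = 4.43e-16). The list's median log2 fold change was -0.88 in the positive gate and -0.78 in the low gate.

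Between receptor and ERK the genes moved in both directions. Of 10 adaptors, 4 were higher and 2 lower in the positive gate, and 5 higher and 1 lower in the low gate. The largest rises were those of the docking proteins GAB1 in the positive gate (log2 0.85 ± 0.047) and GAB2 in the low gate (0.77 ± 0.059), and the largest fall in both was that of the RAS activator SOS1 (-0.46 ± 0.032 and -0.57 ± 0.032). Of 17 genes of the RAS, RAF, MEK and ERK cascade, 6 were higher and 8 lower in the positive gate, and 6 higher and 7 lower in the low gate. SHOC2, which helps to activate RAF, rose most in the positive gate (log2 0.57 ± 0.046), and the ERK-activated kinase RPS6KA1 rose most in the low gate (0.90 ± 0.082). KSR1, a scaffold of the cascade, had the largest fall in both (-0.83 ± 0.034 and -1.41 ± 0.035). Median log2 fold changes of the adaptors were 0.027 and 0.10 in the positive and low gates, and those of the cascade were -0.15 and 0.019.

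More inhibitors outside the set rose than fell. Of 16 other negative regulators, 11 were higher and 3 lower in the positive gate, and 10 higher and 3 lower in the low gate, with median log2 fold changes of 0.32 and 0.23. SULF2, a sulfatase that trims the heparan sulfate on which FGF binding depends, rose most in both gates (log2 2.73 ± 0.041 and 2.97 ± 0.038). ERRFI1, an inhibitor of EGF receptors that is also induced by stress, fell most in both (-1.73 ± 0.026 and -1.61 ± 0.026). Of 8 genes made up of 7 other MAP kinase phosphatases and SPRY3, 3 were higher and 4 lower in the positive gate, and 2 higher and 1 lower in the low gate. SPRY3, the Sprouty gene outside the set, rose from 6.25 and 5.77 CPM to 12.6 and 11.1 CPM in the positive gate (log2 0.98 ± 0.12, adjusted p = 1.77e-09 by edgeR), and by 1.34 ± 0.12 log2 in the low gate (adjusted p = 2.19e-13). DUSP8 fell most in the low gate (log2 -0.66 ± 0.13). DUSP2 fell most in the positive gate (log2 -2.73 ± 0.81), from 36 and 10 counts to 10 and 0 counts.

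Among 22 transcription factors and early genes downstream of ERK, 8 were higher and 12 lower with FGF8+10 in the positive gate, and 10 were higher and 10 lower in the low gate. Their median log2 fold changes were -0.22 and -0.015. The PEA3 factors ETV1, ETV4 and ETV5, ETS proteins known as FGF targets in the limb bud, were among those that rose. ETV1 had the largest rise of the list in both gates. It was at 78.5 and 75.0 CPM with FGF8+10 and 5.58 and 4.25 CPM with Mock in the positive gate (log2 3.97 ± 0.077, adjusted p = 5.14e-38 by edgeR). In the low gate it was at 92.3 and 85.0 CPM with FGF8+10 and 0.230 and 0.265 CPM with Mock (log2 8.47 ± 0.12, adjusted p = 8.15e-44). Like SPRY1 and SPRY4, ETV1 was thus lowest in the low gate under Mock.

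ETV4 and ETV5 were singled out for their family after their values had been seen. ETV4 was at 19.0 and 17.9 CPM in FGF8+10 Pdgfra-positive, 45.3 and 47.7 in FGF8+10 Pdgfra-low, 1.75 and 2.22 in Mock Pdgfra-positive and 0.263 and 0.281 in Mock Pdgfra-low libraries. Like SPRY4 and DUSP6, it was lowest in the low gate under Mock and highest there under FGF8+10. ETV4 rose by 3.21 ± 0.12 log2 in the positive gate and by 7.41 ± 0.15 in the low gate, and the 2 effects differed by 4.20 ± 0.24 (adjusted p = 1.05e-18 by edgeR). ETV5 rose by 2.51 ± 0.093 and 2.84 ± 0.087, and its effects did not pass the test of a difference (0.33 ± 0.13, adjusted p = 0.0593). EGR2, an early gene of ERK and serum response, had the largest fall of the list in both gates. It had 0 counts in both FGF8+10 Pdgfra-positive libraries and 109 and 98 counts with Mock, a fall of at least 50.3-fold with 6 counts (3 read pairs) over the group taken as the floor. In the low gate it had 0 and 2 counts with FGF8+10 against 52 and 94 with Mock, a ratio of 67.2 (exact 95% interval 11.7 to 2689, counting error only).

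Between the gates under Mock, 15 of the 22 ERK-downstream genes were higher in the positive gate and 0 lower by edgeR, against 12.4% and 13.4% of tested genes, where 6 of the 10 feedback inhibitors were higher and 1 lower. Under FGF8+10 the same list had 9 higher and 9 lower, against 19.6% and 21.7% of tested genes. The signed log2 change with FGF8+10 was higher in the low than in the positive gate for 12 of the 22 and lower for 1. The shares of tested genes were 14% and 12%. For genes that fell, a higher signed change is a smaller fall. These counts come from the same libraries as those of the inhibitors.

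**Figure D4:**
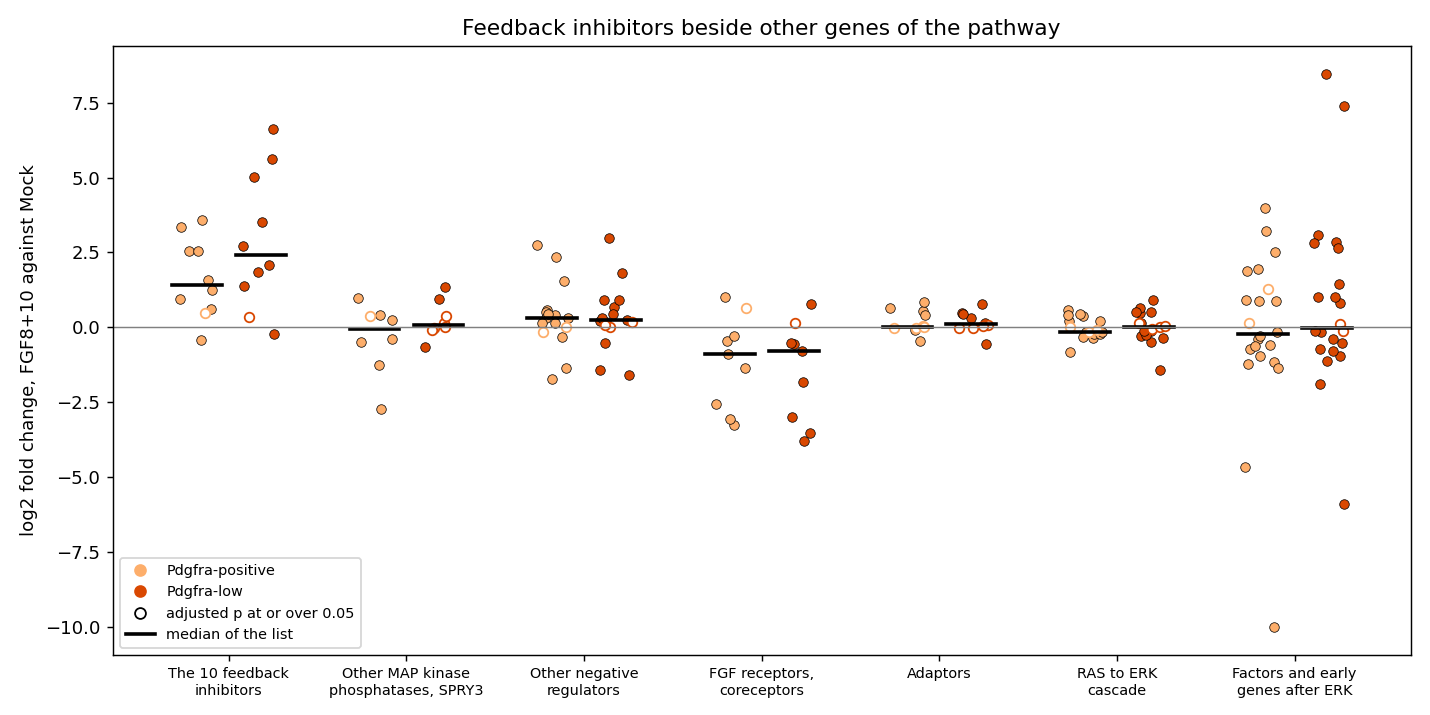
Points show the log2 fold change of each gene with FGF8+10 against Mock, in the Pdgfra-positive and the Pdgfra-low gate, for the 10 feedback inhibitors and the 6 lists of other pathway genes, with a line at the median and open points for genes that did not pass the test. The medians of the inhibitors are 1.42 and 2.40, while the medians of the other lists lie between -0.88 and 0.32. The lowest points of the last list are EGR2, whose fitted value depends on the prior count because it had 0 to 2 counts per library with FGF8+10.

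Genes most like SPRY4 and DUSP6 were sought over the 4 group means among 15123 other genes with a mean of at least 1 CPM. The 5 nearest to SPRY4 were TCF24, ASIC2, ADGRG6, BMP10 and HHEX, with root mean square differences of 0.16 to 0.22 log2. The place of TCF24 rests on the prior count of 2, since it had 0 counts in both Mock Pdgfra-low libraries. ADGRG6, an adhesion receptor gene, was at 30.4 and 26.4 CPM in FGF8+10 Pdgfra-positive, 45.5 and 49.1 in FGF8+10 Pdgfra-low, 2.22 and 2.55 in Mock Pdgfra-positive and 0.509 and 0.711 in Mock Pdgfra-low libraries. TCF24 was at least 54.5-fold higher with FGF8+10 in that gate. The 5 nearest to DUSP6 were HHIP, TSLP, RASGRP3, CDKN2B and SLC18A1, at 0.14 to 0.25 log2. HHIP, which encodes a hedgehog-binding protein, was at 5.73 and 5.68 CPM in FGF8+10 Pdgfra-positive, 11.8 and 12.9 in FGF8+10 Pdgfra-low, 0.650 and 0.872 in Mock Pdgfra-positive and 0.329 and 0.513 in Mock Pdgfra-low libraries. SPRY1, left out of the search as a member, was at 0.41 from SPRY4.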

How the data were processed

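The authors deposited 1 table of raw read counts per gene name for 8 libraries. The submitters' processing notes name FastQC 0.11.8, the aligner HISAT2 2.1.0 and the build GRCh38. Per the file headers, featureCounts 2.0.3 counted reads on GENCODE release 42, unstranded, with both mates of a pair counted and with multi-mapping or multi-gene reads dropped. Counts therefore overstate independent fragments, and a gene that overlaps another loses the shared part. The table has 0 unused sample columns and 0 summary lines.

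In R 4.3.3, edgeR 4.0.16 (limma 3.58.1) was used with filterByExpr over the 4 groups (22554 of 39416 genes with any count), TMM scaling and 1 robust quasi-likelihood model fitted to the 8 libraries together (group means, 4 residual degrees of freedom). The 5 two-sided contrasts were adjusted separately over all tested genes by Benjamini-Hochberg, at 0.05. The fit drew the spread of each gene towards that shared by the tested genes. The p-values therefore rest on that shared spread and on more than the 4 residual degrees of freedom. An SE is the log2 fold change divided by the square root of F. The common biological coefficient of variation was 4.06%. CPM are counts over TMM-adjusted totals. The script was tested on simulated data. DESeq2 1.42.0, other scalings and filters, counts divided by 2, a replicate block, fits of the 4 compared libraries alone and leaving out each library were alternatives. Floors are 3 pairs over a group, and like the intervals they cover counting error only, because reads lacking molecular identifiers need not be separate molecules.

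The members, the pathway and marker lists, the motifs and the tests were chosen with earlier results of these data known. Named besides the 10 members are the gene with the largest called rise and fall of each list in each gate, the 5 genes most like SPRY4 and DUSP6, the sort genes, and markers beside the results they move with. The blood, cardiac and smooth muscle, pluripotency and neural marker lists are given under the other observations.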

Additional observations from a re-analysis of the deposited data

Results flagged for a closer look

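The response to FGF8+10 differed between the 2 sorted gates, by the test of that difference, for 7 of the 10 feedback inhibitors. The log2 effect in the Pdgfra-low gate exceeded that in the Pdgfra-positive gate by 3.28 for SPRY4, 3.03 for DUSP5, 2.48 for DUSP6, 2.05 for SPRY1, 0.61 for IL17RD, 0.48 for SPRED2 and 0.41 for SPRED1. The values rest on 2 libraries per group, and the cells held by each gate may differ between the treatments.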

How the results depend on the processing

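Over 740 combinations of a member, a comparison and an alternative, 714 kept the side of the threshold, 21 lost a call and 5 gained one. A called sign changed in 0, but differences that were not called could change sign. SPRY2 between the gates under Mock, at 0.016 log2, ran from -0.053 to 0.079 over the alternatives. The number of members called lower with FGF8+10 in the Pdgfra-low gate, 1 (DUSP4), became 0 with library totals alone and with DESeq2, and ranged from 0 to 1 when each library was left out. Calls gained were those of DUSP5 in the positive gate and SPRED3 in the low gate (adjusted p = 0.0292) with library totals alone, SPRED3 in the low gate without FGF8+10 Pdgfra-low replicate 2 (0.0272), and the gate difference of DUSP5 under Mock without Mock Pdgfra-positive replicate 2 (0.0444) or with a mean of at least 1 CPM (0.0479). The causes were not tested. Same-numbered libraries showed no shared deviation, with correlations of -0.0063 to 0.033 over 10042 genes. This cannot tell whether they came from 1 culture or sort, which the labels do not say. With the replicate number as a block, 8 members were called higher with FGF8+10 in each gate, and no member's call changed. Leaving out a library leaves 1 in its group, which is then assumed to vary like the others. With 2 libraries per group and 4 residual degrees of freedom, small differences of the low genes SPRED3, DUSP5 and IL17RD are the least secure.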

Other observations

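Markers of further cell types were low or changed with treatment. Of 4 blood markers, the summed level was 0.059 to 0.515 CPM over the 8 libraries. The 3 pluripotency markers summed to 0.019 to 0.171 CPM with FGF8+10 and 0.605 to 1.46 CPM with Mock, and the 3 neural markers to 0.592 to 1.85 CPM over all libraries. The 3 smooth muscle markers summed to 16.2 to 25.6 CPM, with opposite changes inside the sum. With FGF8+10, ACTA2, smooth muscle actin, rose by 2.52 ± 0.13 log2 in the positive gate and 2.03 ± 0.12 in the low gate, while CNN1, calponin, fell by 1.45 ± 0.12 and 1.43 ± 0.11. MYH11, the defining myosin, was at 0.447 to 1.16 CPM in all libraries. The 4 cardiac muscle markers summed to 2.72 to 3.03 CPM with FGF8+10, 60.1 to 68.0 CPM in Mock Pdgfra-positive and 48.6 to 50.1 CPM in Mock Pdgfra-low libraries. TNNT2, cardiac troponin T, made up most of the Mock sums, at 58.4 and 65.7 CPM in the positive gate and 47.6 and 46.7 CPM in the low gate, and was at 0.171 to 0.810 CPM with FGF8+10. NKX2-5 did not pass the test in the positive or the low gate (log2 0.29 ± 0.24 and 0.27 ± 0.23 with FGF8+10). MYH6 and MYH7 were at or below 0.291 CPM in every library. TNNT2 moved opposite to the feedback inhibitors that rose with FGF8+10. DUSP4 also fell, but by 1.34-fold in the positive and 1.155-fold in the low gate, where TNNT2 fell 83.8-fold and 217-fold. Between the gates the 2 genes went opposite ways. Positive minus low, TNNT2 differed by 0.40 log2 under Mock and 1.77 under FGF8+10, and DUSP4 by -1.10 and -1.31. The part of cardiac cells in the results on the inhibitors was not tested.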
